A study of Homo sapiens with 13 samples.

Results

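The regions described here are the PTBP1 peaks that lay in intergenic sequence and overlapped no RUNX1 peak in MOLM-13 cells, a human line derived from acute myeloid leukemia. PTBP1 regulates splicing through pyrimidine-rich stretches of RNA, and RUNX1 is a DNA-binding transcription factor of blood cell development. Their positions on chromatin were profiled by CUT&Tag, in which an antibody brings a transposase to the bound protein and the cut fragments are sequenced. CUT&RUN libraries, in which a nuclease cuts instead, were made in parallel. The 13 libraries comprised 2 PTBP1 and 2 RUNX1 replicates by each assay, 2 H3K27me3 and 2 IgG control replicates by CUT&RUN, and 1 IgG library by CUT&Tag, all from MOLM-13 cells with no treatment named in their labels. The measurements used were 1 list of PTBP1 peaks and 1 list of RUNX1 peaks on the hg38 build. The lists name a target but neither an assay nor a replicate and were taken as CUT&Tag lists from the study's methods.

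The members were defined by the peak calls themselves. A PTBP1 peak was kept when it shared no base with a RUNX1 peak, shared no base with a GENCODE version 44 gene of any type and did not come within 1 kb of any gene's transcription start site (TSS). The absence of a called RUNX1 peak does not show that RUNX1 signal was absent. This left 568 of 9370 PTBP1 peaks, which covered 359501 bases. Among all PTBP1 peaks 50.8% overlapped no RUNX1 peak, and among the 881 intergenic ones 64.5% did not. These shares restate the rule and are given as background only. The members were compared with the 313 intergenic PTBP1 peaks that overlapped a RUNX1 peak (shared regions), with 633 RUNX1 peaks that met the same location rule and overlapped no PTBP1 peak (RUNX1-only regions), and with 2139 PTBP1 peaks that overlapped no RUNX1 peak and lay within a gene away from a TSS (gene-body regions). With 1 list per target no spread between replicates can be given. Peaks that lie side by side are not independent either, and the p-values below speak only of these 2 lists, not of how cultures vary.

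Intergenic chromatin holds enhancers, the ends of transcription units that run past annotated genes, and genes that an annotation leaves out. Transfer RNA (tRNA) genes are a class of the last kind: they are short, are transcribed by RNA polymerase III and carry their promoter inside the gene, in the A box and the B box. Runt-domain proteins such as RUNX1 recognise a short core sequence, and PTBP1 is known for binding RNA and not for recognising a DNA sequence.

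The sequences below, each printed 5′ to 3′, were chosen to show the kinds of DNA found under the members, and each window holds the base of highest pileup (the summit) and 50 bases either side. The first is 1 of the 2 strongest members, in which a RUNX core (TGTGGT or TGCGGT on either strand) would be in capitals and none is present.
CYP2W1 region, chr7:993156-993256, hg38, plus strand: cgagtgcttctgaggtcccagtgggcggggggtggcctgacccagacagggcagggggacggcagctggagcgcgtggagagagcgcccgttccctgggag

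The next set holds the 2 strongest members in CpG-rich sequence, with each CG in capitals.
CCDC200 region, chr17:43315445-43315545, hg38, plus strand: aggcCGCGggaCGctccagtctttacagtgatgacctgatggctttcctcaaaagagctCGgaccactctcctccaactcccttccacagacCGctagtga
LRFN3 region, chr19:35931584-35931684, hg38, plus strand: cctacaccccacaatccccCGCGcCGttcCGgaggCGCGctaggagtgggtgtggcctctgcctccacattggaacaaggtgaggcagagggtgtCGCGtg

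The 3 strongest members with a RUNX core follow, with the core in capitals, as TGTGGT or its reverse complement ACCACA. The FOXO6 window, made up mostly of G and T, holds 4 copies.
ENSG00000239327 region, chr14:20613561-20613661, hg38, plus strand: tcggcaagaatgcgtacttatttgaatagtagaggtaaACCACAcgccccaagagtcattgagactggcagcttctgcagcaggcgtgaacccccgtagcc
FOXO6 region, chr1:41424303-41424403, hg38, plus strand: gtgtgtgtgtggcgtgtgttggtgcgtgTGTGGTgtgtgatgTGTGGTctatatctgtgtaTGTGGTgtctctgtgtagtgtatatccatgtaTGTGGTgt
PLIN3 region, chr19:4870231-4870331, hg38, plus strand: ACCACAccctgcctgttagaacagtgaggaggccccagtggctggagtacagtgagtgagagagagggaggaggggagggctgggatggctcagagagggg

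The strongest member in a tandem repeat is shown next, with capitals for bases in a 12-base word that occurs more than once within 150 bases of the summit. It holds a run of alternating C and T, the pyrimidines that PTBP1 binds in RNA, but it does not stand for the members as a set. Runs of at least 12 C or T on either strand lay at 13.2% of member summits, against 14.7% of all PTBP1 summits. The next strongest members in tandem repeats, on chromosomes 11 and Y, held no such run in their windows.
ENSG00000278996 region, chr21:8228706-8228806, hg38, plus strand: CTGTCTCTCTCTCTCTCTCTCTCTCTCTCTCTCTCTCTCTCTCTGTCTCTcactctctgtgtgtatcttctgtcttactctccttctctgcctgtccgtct

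The final set holds tRNA genes that lie wholly under members, with GTTCGA, part of the B box, in capitals. The gene table gives no strand for them, so each is printed in the orientation that holds GTTCGA.
TRS-CGA1-1 gene, chr17:8138881-8138962, hg38, minus strand: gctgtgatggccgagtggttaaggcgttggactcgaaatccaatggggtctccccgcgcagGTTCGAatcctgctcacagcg
TRT-AGT5-1 gene, chr17:8139452-8139525, hg38, minus strand: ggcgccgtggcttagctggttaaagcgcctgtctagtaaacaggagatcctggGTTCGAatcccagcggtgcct
TRD-GTC2-9 gene, chr12:124927345-124927416, hg38, minus strand: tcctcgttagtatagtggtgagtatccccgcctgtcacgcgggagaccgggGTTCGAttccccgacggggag
TRF-GAA1-4 gene, chr12:124927843-124927915, hg38, minus strand: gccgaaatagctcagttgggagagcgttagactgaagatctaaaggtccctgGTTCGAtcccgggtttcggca

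In height the members were modest peaks. Fold enrichment is the pileup of fragments at the summit over the background, each with 1 added, as the authors' peak caller gave it. It had a median of 9.30 in the members (quartiles 8.14 and 11.6), with a lowest value of 3.89 and a highest of 30.8. The shared regions had a median of 12.8 and the RUNX1-only regions, on another background, 14.3. The gene-body regions had the median of the members, 9.30. The fold enrichment and significance of a peak together fix a whole number of fragments, and the median member had 16 fragments at its summit (quartiles 14 and 20, range 11 to 68). The median shared region had 21 fragments and its highest 344, while the highest gene-body region had 296. Members were also narrow, spanning 493 bases at the median (quartiles 348 and 700) against 586 in shared regions and 516 in gene-body regions. These measures come from the same calls that chose the members and were not tested. The background under a peak was above its usual level at 32 members (5.63%), against 4.86% of all PTBP1 peaks.

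**Figure D1:**
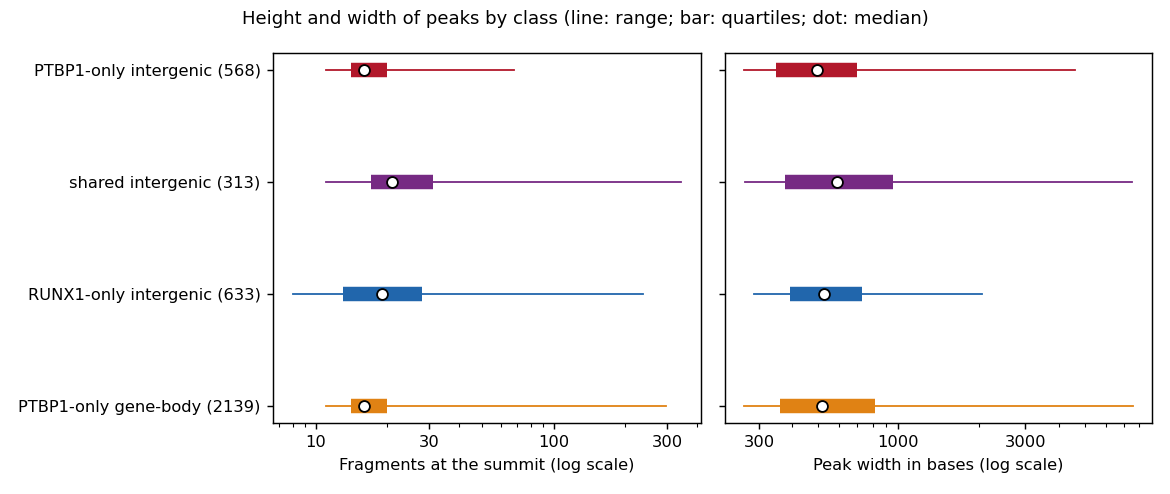
Fragments at the summit (left, log scale) and peak width in bases (right, log scale) for the members and the 3 classes they were compared with, where lines span the range, bars the quartiles, and dots mark the median. The members' medians, 16 fragments and 493 bases, lie below those of shared regions, 21 fragments and 586 bases.

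The 10 strongest members lay 728 to 17902 bases from their nearest gene. In all 11 members reached the tenth value, and the one at chr5:922208-923866, 2850 bases past TRIP13, was left out of the 10 by its position alone. The 2 strongest had equal values, a fold enrichment of 30.8 from 52 fragments. One, chr17:43314140-43317049, lay 8742 bases from the 5-prime end of CCDC200, a coiled-coil protein gene. The other, chr7:992063-993704, lay 2422 bases past the 3-prime end of CYP2W1, a cytochrome P450 gene, although RefSeq places it inside CHLSN. The member at chr19:35931457-35931893, 3464 bases upstream of LRFN3, a neuronal adhesion protein gene, had 29.07 from 49 fragments. The member at chr17:43322410-43322996 had 25.6 and lay 15744 bases past the 3-prime end of the long noncoding RNA (lncRNA) gene LINC00910. The remaining 6 had fold enrichments of 22.7 to 24.998. They were chr7:76379770-76380347, 8986 bases past SSC4D, a scavenger receptor family gene, at chr21:8228375-8229038, 728 bases past the lncRNA gene ENSG00000278996, and at chr14:31229720-31230104, 14656 bases from a Y RNA gene. The other three lay at chrX:54639424-54640016, 17902 bases past the GENCODE end of GNL3L, which encodes a nucleolar GTPase and whose RefSeq gene overlaps it, at chr19:1670247-1671009, 17631 bases upstream of TCF3, which encodes the E2A transcription factors, and at chr22:46115256-46118356, 1327 bases past MIRLET7BHG, the host gene of let-7 microRNAs. All 10 lay on the usual background.

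The 3 widest members spanned 3619 to 4589 bases. The widest, chr5:1153185-1157773, lay 15367 bases past the lncRNA gene TERLR1 with a fold enrichment of 14.5, and RefSeq places it inside SLC12A7, a potassium-chloride cotransporter gene. The next, chr9:136690634-136694723, lay 3176 bases upstream of AGPAT2, which encodes an enzyme of phospholipid synthesis, and had a fold enrichment of 19.2. The third, chr22:46121384-46125002, lay past MIRLET7BHG beside the member named above and had 18.0. Wide and strong went together, and among the 147 members with a fold enrichment of at least 11.6 the median width was 724 bases, against 387 bases among the 166 members at 8.14 or below.

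The limits of the rule passed close to some members. The member nearest to the TSS limit had 1000 bases between it and the TSS of the lncRNA gene ENSG00000290068, with a fold enrichment of 8.72, and the next 2 lay 1033 bases from one. Just outside were PTBP1-only peaks 984, 975 and 902 bases from the TSSs of other genes, with 6.30, 11.6 and 6.49. The member nearest to a RUNX1 peak was 16 bases from it, at chr2:63059079-63059368 past OTX1, a homeobox gene, with 8.14, and the next 2 were 171 and 198 bases away with 7.56 and 10.5. The PTBP1 peaks that missed the rule by the smallest overlap shared 3, 80 and 96 bases with a RUNX1 peak and had 8.14, 9.88 and 9.88. The 3 members of lowest fold enrichment, 3.89, 3.96 and 4.33, were not those with fewest fragments, since they had 49, 50 and 29 fragments on a background of 11.9, 11.9 and 5.93 fragments against the usual 0.720. All 3 lay on chromosome 1 between 39 and 42 Mb, the first of them 1558 bases upstream of MFSD2A, a lysophosphatidylcholine transporter gene.

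Members were spread unevenly over the chromosomes, as all PTBP1 peaks were. Chromosome 1 held 121 of them (21.3%, against 12.9% of all PTBP1 peaks), chromosome 17 held 78 (13.7% against 10.5%) and chromosome 19 held 53 (9.33% against 11.4%). Per 10 Mb this came to 4.86, 9.37 and 9.04 members, against 0.0874 on chromosome 13 and 0.252 on chromosome 3. Chromosomes 22 and 16 held 30 members each, or 5.90 and 3.32 per 10 Mb. Windows of 1 Mb that held at least 50 PTBP1 peaks numbered 23 and contained 235 members (41.4%), against 20.4% of all PTBP1 peaks. The stretch of chromosome 1 from 39 to 44 Mb contained 83 members (14.6%), against 4.01% of all PTBP1 peaks, and the window from 40 to 41 Mb alone contained 32 of its 137 PTBP1 peaks. Copy number of these stretches was not analysed here. Counts of members on a chromosome follow from the peak calls and were not tested.

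**Figure D2:**
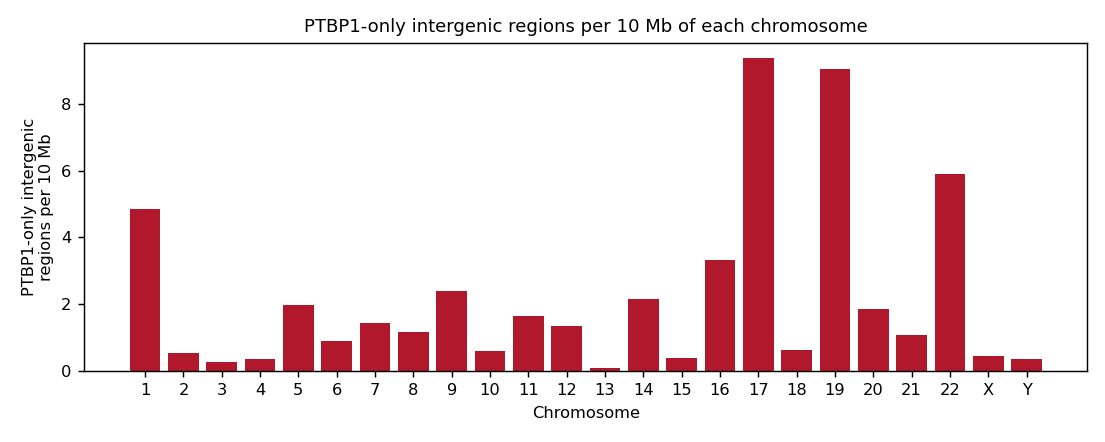
Number of PTBP1-only intergenic regions per 10 Mb of each chromosome, as bars from 0. Chromosomes 17 and 19 stand highest at 9.37 and 9.04, and chromosome 13 lowest at 0.0874.

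Members also came in chains. When members separated by at most 10 kb were joined, 240 (42.3%) fell into 85 chains and 328 stood alone. Chain counts for the other classes are not given here. Close spacing was not particular to members, since the nearest other PTBP1 peak was at a median of 2599 bases in members and 1790 in gene-body regions. It was at 16039 bases in shared regions and 10304.5 in all PTBP1 peaks. The longest chain by number, chr1:41385430-41427274, held 14 members with fold enrichments of 6.98 to 14.5 between FOXO6, a forkhead transcription factor gene, and the 5S rRNA pseudogene RNA5SP45. Chains of 7 members lay at chr17:43309385-43335293, at chr17:79803279-79813932 beside LINC01977, and at chr5:1140396-1167276 between SLC12A7 and TERLR1. By nearest gene, 13 members were closest to FOXO6, 6 to TERLR1 and 5 each to MFSD2A, MIRLET7BHG and MYCL, which encodes a MYC family transcription factor. On chromosome 1, 4 were closest to HEYL, which encodes a transcriptional repressor of the Notch pathway, and 4 to HIVEP3, a zinc finger protein gene. On chromosome 22, 4 were closest to PIM3, which encodes a serine/threonine kinase.

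The chain at chr17:43309385-43335293 held 1 of the 2 strongest members and stood beside an array of genes for U2, the small nuclear RNA that recognises the intron branch point in the spliceosome. GENCODE lists 13 U2 genes there, from 43233787 to 43300231, all within the annotated span of CCDC200. The first member of the chain began 9153 bases beyond the last of them. In order along the chromosome the 7 members had fold enrichments of 16.9, 30.8, 12.2, 13.4, 25.6, 8.14 and 9.88. All 7 PTBP1 peaks of the stretch were members, and the RUNX1 list held 0 peaks in it. Within the array itself there were 3 PTBP1 peaks and 1 RUNX1 peak. The share of 32-base words that occur more than once in the genome ranged from 0 to 70.0% among the 7 members, with 70.0% in the member near LINC00910 and 3.70% in the one of highest fold enrichment. The U2 genes were looked up after the chain had been seen, and no test was made of this position.

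Most members lay near a gene. The median distance to the nearest gene was 3480 bases (quartiles 1463 and 8083), with a range of 34 to 1408124 bases, and 456 members were within 10 kb of one. The nearest other PTBP1 peak was at a median of 2599 bases and the nearest RUNX1 peak at 12644 bases. In gene-body regions these medians were 1790 and 10037 bases. A RUNX1 peak came within 1 kb of 34 members and within 10 kb of 258, and 2 members lay on chromosome Y, where the RUNX1 list had no peak.

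**Figure D3:**
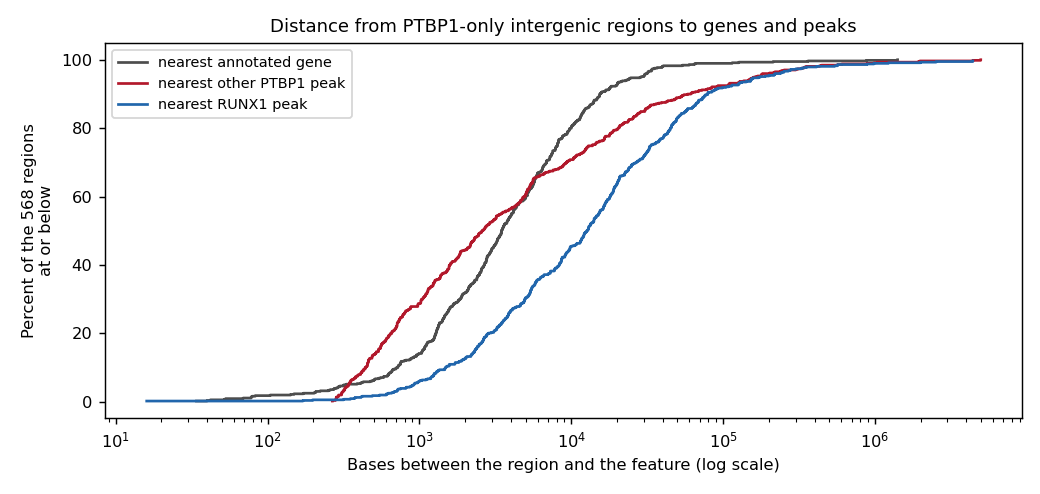
Cumulative percent of the 568 members (vertical axis) at or below each distance in bases (horizontal axis, log scale) to the nearest annotated gene, the nearest other PTBP1 peak and the nearest RUNX1 peak. The medians are 3480, 2599 and 12644 bases, so the curve for RUNX1 peaks lies to the right of the others over most of its range.

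The nearest gene was protein-coding for 327 members (57.6%) and an lncRNA gene for 175 (30.8%). For shared regions the protein-coding share was 43.5%, so members exceeded it by 14.1 points, with an odds ratio of 1.77 (p = 7.66e-05, two-sided Fisher's exact test). Members lay nearer to the 3-prime end than to the 5-prime end of that gene in 355 cases (62.5%, 95% Wilson interval 58.5 to 66.4). The share was 56.2% in shared and 52.6% in RUNX1-only regions, and of the differences of 6.27 and 9.89 points only the second passed the test (Fisher's exact test, Benjamini-Hochberg adjusted p = 0.0724 and 0.00114 over 2 comparisons). The TSS limit, which applies to all 3 classes, keeps regions away from 5-prime ends but not from 3-prime ends. Among regions over 1 kb from their nearest gene, a comparison added after seeing the data, 56.4% of 488 members, 53.7% of shared and 49.9% of RUNX1-only regions lay at a 3-prime end, and neither difference passed (Fisher's exact test, adjusted p = 0.505 and 0.0757). The difference from RUNX1-only regions was 6.44 points there, and why it was smaller was not tested.

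Whether a region is intergenic depended on the annotation. Of the 568 members, 110 (19.4%) overlapped a RefSeq gene, and 458 did not. The share in the other classes is not given here, so this is not shown to be particular to members. The 110 are described by type. They overlapped lncRNA genes in 73 cases, protein-coding genes in 29, tRNA genes in 8 and pseudogenes in 6, and a member can count under several types.

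Members lay towards the ends of chromosomes. Of the 559 members on autosomes, 265 (47.4%, 95% Wilson interval 43.3 to 51.6) were within 5 Mb of an end, against 31.4% of all PTBP1 peaks on autosomes. The share was 25.2% in shared regions (interval 20.7 to 30.3) and 13.2% in RUNX1-only regions (10.7 to 16.1). Members exceeded them by 22.2 points (odds ratio 2.68, adjusted p = 1.34e-10 by the two-sided exact test of Fisher over 3 comparisons) and by 34.2 points (odds ratio 5.94, adjusted p = 2.12e-38). The gene-body regions had 51.9%, and the difference of -4.48 points did not pass (adjusted p = 0.0636 by the exact test). It passed among peaks with a −log10 q-value of at least 10 (-5.78 points, Fisher's exact test, adjusted p = 0.0229) and with a TSS window of 5 kb (-9.65 points, adjusted p = 0.00199), and turned to 1.27 points without the dense 1 Mb windows and 3.13 points with 1 region per chain. GC content also differed between the classes, with a median over the 150 bases either side of the summit of 59.5% in members, 54.8% in shared, 48.5% in RUNX1-only and 62.8% in gene-body regions. Its relation to the distance from a chromosome end was not examined, and its part in the result was not tested.

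The RUNX core was at the background level under the members. Within 50 bases of the summit it lay at 45 members (7.92%, 95% Wilson interval 5.97 to 10.4), against 8.79% of all PTBP1 summits. It lay at 18.2% of shared and 50.1% of RUNX1-only summits. Throughout, summits of members, shared and gene-body regions are those of the PTBP1 list, and summits of RUNX1-only regions are those of the RUNX1 list. Comparisons with RUNX1-only regions therefore also set the summits of 1 target against those of the other. Members differed from shared regions by -10.3 points, with an odds ratio of 0.386 (adjusted p = 1.31e-05 over 3 comparisons, two-sided Fisher's exact test), and from RUNX1-only regions by -42.2 points, with an odds ratio of 0.0858 (adjusted p = 1.74e-61). The gene-body regions had 9.21%, a difference of -1.29 points that did not pass (adjusted p = 0.364 by the exact test). The classes were split by RUNX1 peak calls, and RUNX1 recognises this core. The direction of the differences from shared and RUNX1-only regions therefore follows at least in part from the rule.

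Each summit was also set against its own neighbourhood, a window of the same width centred 500 bases to the left. The core was at 7.92% of member summits and 9.15% of their flanks. It was at the summit alone in 44 members and at the flank alone in 51 (two-sided exact sign test, adjusted p = 0.538 over 5 comparisons). The strongest members with the core were chr14:20613301-20613858, which also overlaps 2 tRNA genes, with a fold enrichment of 16.3, chr1:41423870-41424874 in the FOXO6 chain, with 14.5, and chr19:4869798-4870566, 2103 bases upstream of PLIN3, a lipid droplet coat protein gene, with 13.95. As a description, 20 of the 166 weakest members (12.05%) and 6 of the 147 strongest (4.08%) held the core.

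**Figure D4:**
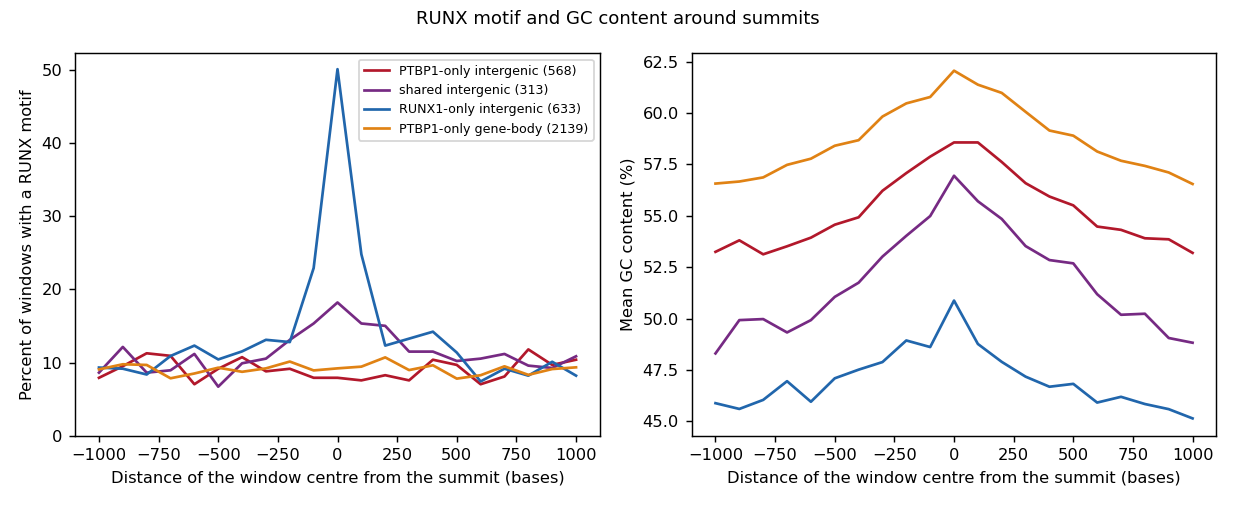
Percent of windows of 50 bases either side with a RUNX core (left) and mean GC content in percent (right) at distances from the summit in bases, for the members and the 3 other classes. Summits are those of the RUNX1 list in RUNX1-only regions and of the PTBP1 list elsewhere. The RUNX1-only regions peak at 50.1% at the summit and the shared regions at 18.2%, while the members show no rise above their flanks there and, as all 4 classes do, rise in GC content.

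Members were richer in GC at the summit than at the flank, yet poorer than PTBP1 peaks as a whole, with a median of 59.5% against 64.5%. GC content over 150 bases either side averaged 58.4% at member summits and 54.5% at the flanks, and was higher at the summit in 385 members and at the flank in 167, with 16 ties (two-sided exact sign test, adjusted p = 3.96e-20 over 5 comparisons). A window counted as CpG-rich when its GC content was at least 55% and its observed to expected ratio of CpG at least 0.65. This was met by 57 members (10.04%), against 48.5% of all PTBP1 peaks. Member summits met it more often than their flanks, of which 5.46% did (44 summits alone, 18 flanks alone, exact sign test, adjusted p = 0.00325), but not when the flank was taken on the right (2.11 points, exact sign test, adjusted p = 0.405). The share was 15.3% in shared, 3.48% in RUNX1-only and 13.4% in gene-body regions. Members exceeded the RUNX1-only share by 6.56 points, with an odds ratio of 3.10 (adjusted p = 1.91e-05, two-sided Fisher's exact test). They differed from the shared regions by -5.30 points (odds ratio 0.616, adjusted p = 0.0334, Fisher's exact test) and from the gene-body regions by -3.34 points (odds ratio 0.723, adjusted p = 0.0334). Both of these calls were lost among peaks with a −log10 q-value of at least 10, and likewise with the 5 kb TSS window and without dense windows. With 1 region per chain the difference from gene-body regions was -7.19 points and passed (Fisher's exact test, adjusted p = 8.92e-04), while that from shared regions did not. The TCF3 member is CpG-rich, but 83.3% of the 32-base words around its summit occur more than once in the genome.

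Pyrimidine runs, the DNA counterpart of the RNA that PTBP1 binds, lay under a minority of members. A run of at least 12 C or T on either strand lay within 50 bases of 75 member summits (13.2%), against 14.7% of all PTBP1 summits. The share was 15.7% in shared, 19.1% in RUNX1-only and 13.7% in gene-body regions. Members differed from the RUNX1-only regions by -5.91 points, with an odds ratio of 0.644 (adjusted p = 0.0184 over 3 comparisons, two-sided Fisher's exact test), and the differences from the shared and gene-body regions did not pass (adjusted p = 0.471 and 0.783 by the exact tests). Runs were fewer at member summits than at the flanks, 13.2% against 19.0%, with 57 summits alone and 90 flanks alone (two-sided exact sign test, adjusted p = 0.0135). Neither of these 2 calls held with 1 region per chain, where the differences were -4.33 points (Fisher's exact test, adjusted p = 0.223) and -2.18 points (exact sign test, adjusted p = 0.533).

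Tandem repeats lay under few members. In 14 members (2.46%, against 1.0% of all PTBP1 peaks) at least 25% of the 12-base words within 150 bases of the summit occurred there more than once. The shares were 2.88% in shared, 2.53% in RUNX1-only and 1.64% in gene-body regions, and none of the 3 differences passed Fisher's exact test (adjusted p = 1.0, 1.0 and 0.641). The strongest of them were the CT run at chr21:8228375-8229038, with a fold enrichment of 24.4, chr11:65450761-65451690, with 12.2, and chrY:56838431-56839930, with 12.2. In the chr21, chr11 and chrY windows 94.8%, 81.1% and 38.15% of 32-base words occur more than once in the genome. Among all members the share of such words reached 100%, as at chrX:330943-332272. Reads from repeats can be placed at several positions. The authors kept alignments with a mapping quality above 30. Any effect of read placement on these peaks was not tested.

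A wider measure of repeated sequence was added after seeing the data, because a repeat annotation was not used here. At least 50% of the 32-base words around the summit occurred more than once in the genome for 45 members (7.92%). The measure was taken only in the classes compared, so no share over all PTBP1 peaks can be set beside it. The share was 6.07% in shared, 4.90% in RUNX1-only and 2.90% in gene-body regions. Members exceeded gene-body regions by 5.02 points, with an odds ratio of 2.88 (adjusted p = 1.85e-06), and RUNX1-only regions by 3.03 points (adjusted p = 0.0496, two-sided Fisher's exact tests), and did not pass against shared regions (adjusted p = 0.345). With 90% of words in place of 50% none of the 3 passed. Of the 10 strongest members, those near LINC00910, ENSG00000278996 and TCF3 were among the 45.

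Some members lay on transfer RNA genes, which were looked for after seeing the data. The GENCODE gene file used for the rule lists no tRNA genes, so they come from RefSeq. A tRNA gene lay within 1 kb of 13 members (2.29%, 95% Wilson interval 1.34 to 3.88), against 1.0% of all PTBP1 peaks, and 8 of the 13 overlapped one. The share was 5.11% in shared regions, 0.316% in RUNX1-only and 0.281% in gene-body regions. Members exceeded the RUNX1-only share by 1.97 points, with an odds ratio of 7.39 (adjusted p = 0.00416 over 3 comparisons by the exact test), and the gene-body share by 2.01 points, with an odds ratio of 8.33 (adjusted p = 3.13e-05). They differed from the shared regions by -2.82 points, with an odds ratio of 0.435 (adjusted p = 0.0299, two-sided Fisher's exact tests). Of the 443 RefSeq tRNA genes, 259 overlap no GENCODE gene. By rule members overlap no GENCODE gene and gene-body regions do, so the location rule itself favours tRNA genes in members. The comparison with gene-body regions is therefore a description only. The call against shared regions was lost with 1 region per chain (-2.35 points, Fisher's exact test, adjusted p = 0.128). Counted by gene, 18 of the 443 were within 1 kb of a member, 132 (29.8%) of any PTBP1 peak and 91 (20.5%) of any RUNX1 peak.

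The 8 members on tRNA genes all stood alone, outside any chain. The strongest, chr17:8138649-8139817, covered TRS-CGA1-1 and TRT-AGT5-1, genes of a serine and a threonine tRNA, 654 bases past PER1, a circadian clock gene, and had a fold enrichment of 19.8 from 33 fragments. The next, chr12:124927053-124928179, covered TRD-GTC2-9 and TRF-GAA1-4, for aspartate and phenylalanine, with 17.4. The member at chr2:156400453-156401118 overlapped TRA-CGC3-1, for alanine, with 16.9, and it also overlapped the RefSeq gene GPD2. That at chr14:20613301-20613858 overlapped TRP-AGG2-6 and TRT-TGT3-1, for proline and threonine, with 16.3. The members at TRT-CGT2-1, TRT-TGT2-1, TRL-TAG3-1 and TRR-CCG2-1 had 15.7, 12.2, 10.5 and 9.30. The 5 members near but not over a tRNA gene had 7.56 to 11.6. The gap from these 13 to the nearest RUNX1 peak ranged from 718 to 276447 bases, against a median of 12644 bases in all members. Members were chosen for overlapping no RUNX1 peak, so these gaps are a description only.

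**Figure D5:**
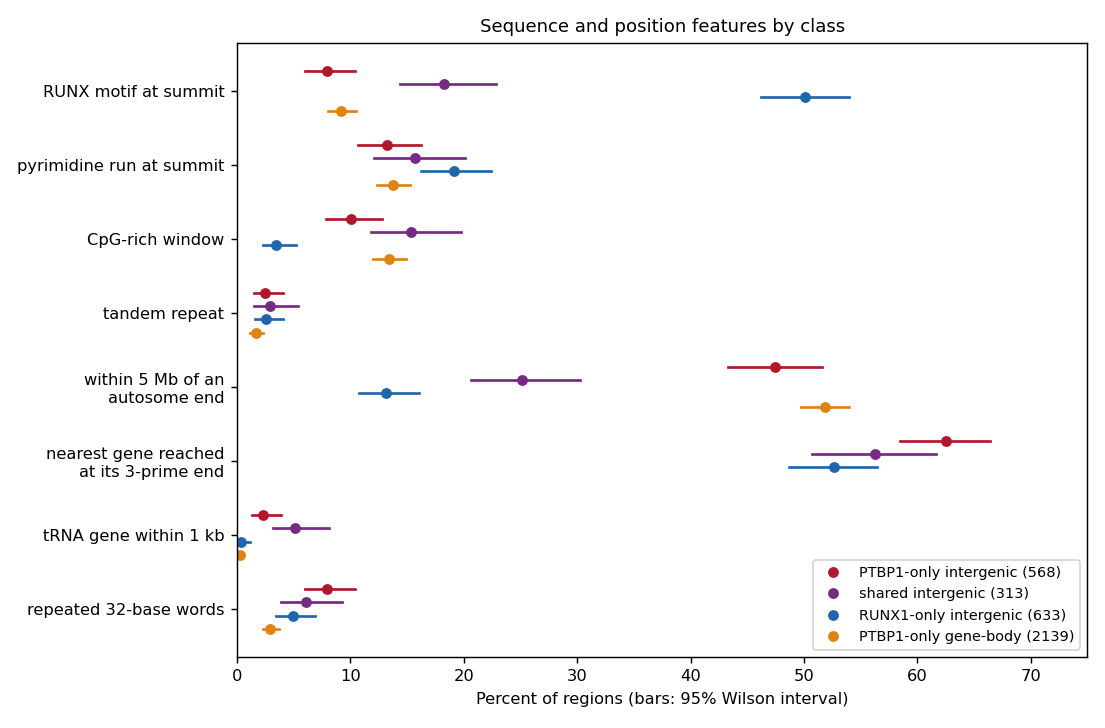
Percent of regions with each feature (horizontal axis) for the members and the 3 other classes, as points with 95% Wilson intervals that cover counting error only. For the RUNX core the members stand at 7.92%, beside the gene-body regions at 9.21%, with the RUNX1-only regions at 50.1%. For chromosome ends they stand at 47.4%, with 51.9% and 13.2%.

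Of 11 other transcription factor motifs, 0 passed at member summits against flanks and 0 against shared regions after adjustment, with 1 and 2 at an unadjusted p under 0.05. The first was GGGCGG, bound by SP and KLF proteins, on either strand, at 12.3% of member summits and 7.92% of flanks (exact sign test, p = 0.0124, adjusted p = 0.136), against 30.3% of all PTBP1 summits. It passed with windows of 100 bases either side, 23.2% against 14.6% (exact sign test, adjusted p = 9.03e-04), and with 1 region per chain (adjusted p = 0.0120). The others were TTGCNNAA, bound by CEBP proteins, at 2.11% of members and 5.43% of shared regions, and AGATAA, bound by GATA proteins, at 1.58% and 4.47% (Fisher's exact tests, adjusted p = 0.0776 for both), against 2.26% and 1.25% of all PTBP1 summits. AGATAA passed with windows of 100 bases either side, at 4.05% of members and 9.58% of shared regions (Fisher's exact test, adjusted p = 0.0179). The remaining 8, sought on either strand, lay at 0.528% to 10.2% of member summits and at 0.854% to 13.04% of all PTBP1 summits. They were CCGGAA for ETS proteins, at 2.64% of members and 6.55% of all, GAGGAA for PU.1, at 9.86% and 9.45%, TGANTCA for AP-1, at 3.17% and 2.25%, and GGNGGCAG for CTCF, at 5.46% and 6.74%. The others were CACGTG, the E-box, at 1.76% and 3.11%, TGCGCA for NRF1, at 1.76% and 3.81%, AAGATGGC for YY1, at 0.528% and 0.854%, and CCAAT, the CCAAT box, at 10.2% and 13.04%.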

How the data were processed

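Peaks for PTBP1 and RUNX1 in MOLM-13 cells were taken as deposited. Per the study's methods, Bowtie2 placed the paired reads on hg38, alignments with a mapping quality above 30 were retained, duplicates were taken out and MACS3 called the peaks, with a q-value limit of 1e-07. The sources used here do not say if replicates were combined before the peaks were called. The deposited fold enrichment is a ratio of pileup to background, each with 1 added, and the deposited −log10 p-value and −log10 q-value are the authors' Poisson significance for each peak. The deposited score is 10 times the −log10 q-value. Positions, widths and summits were used as the authors gave them. Total fragments per library were not analysed here. Depth is known only as the pileup at each peak, and intervals cover counting error only.

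Regions were classified with at least 1 shared base as overlap, GENCODE version 44 genes and a TSS window of 1 kb. Pileup and background were solved from fold enrichment and −log10 p-value. Shares between classes were compared with two-sided Fisher's exact tests and summits with flanks by two-sided exact sign tests. Benjamini-Hochberg adjustment ran within each feature for class comparisons and over 5 features for sign tests, with a threshold of 0.05. For the 11 other motifs it ran over the motifs in both kinds of test. tRNA genes and coordinates beyond GENCODE came from RefSeq on the same assembly. The members, features and motif lists were chosen with earlier results of these data known. Regions named are the 10 strongest, the 3 widest, the 3 strongest with each of a RUNX core, a tandem repeat and a CpG-rich window, the 3 weakest, those nearest to the TSS and RUNX1 limits and the longest chains. tRNA members and genes nearest to several members were named after seeing values. Some items are not reported here. Alternatives covered significance, overlap, TSS window, gene types, background, dense windows, 1 region per chain, and the window, motif and flank. The reference sequence carries no soft-masking, so planned comparisons of soft-masked summits were not run. The classification, solving and motif steps were tested on simulated data. Computation used scipy 1.17.1, pandas 2.3.3, numpy 2.4.6, pysam 0.24.0 and matplotlib 3.10.9 under Python 3.11.15.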

Additional observations from a re-analysis of the deposited data

Results flagged for a closer look

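The excess of the RUNX core at the summit over its own flank differed between classes. It was -1.23 points in the members, 11.5 points in shared regions and 39.65 points in RUNX1-only regions, a difference, as members minus the other class, of -12.73 and -40.88 points. The differences were tested with two-sided Fisher's exact tests on the regions where the core was at the summit alone or at the flank alone (44 and 51 in the members, 52 and 16 in shared, 280 and 29 in RUNX1-only regions), which gave adjusted p = 1.68e-04 and 3.78e-18 over 3 comparisons. Against gene-body regions, with an excess of -0.0935 points, the difference did not pass (Fisher's exact test, adjusted p = 0.565). Summits of RUNX1-only regions come from the RUNX1 list and those of the other classes from the PTBP1 list. Because RUNX1 peak calls split the classes and RUNX1 recognises this core, the direction of these differences follows at least in part from the rule.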

How the results depend on the processing

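Of 158 alternatives over 32 results, 112 kept the direction and the side of the threshold, or for counts stayed within 1.5 times, among them those for the RUNX core between classes. The number of members was 343 with a TSS window of 5 kb and 333 without dense windows. For CpG-rich windows the calls were lost at a −log10 q of at least 10 (-4.0 points against shared, -3.28 against gene-body regions), with the 5 kb TSS window (-3.0 and -0.0500), without dense windows (-3.64 and -4.78), with 1 region per chain against shared regions (-4.77), with the looser criterion against gene-body regions (-3.38) and with the right flank (2.11). For tandem repeats, whose differences passed no test, the sign turned against shared regions (0.133, 0.2875, 1.13 and 0.742) and RUNX1-only regions (0.00395, 0.583, 0.896 and 0.622) at the stricter q, the 5 kb window, without dense windows and with 1 region per chain, and against gene-body regions with the 5 kb window (-0.166) and 50% of words (-0.162). Against flanks 1000 bases to the left, -2.64 points passed. For pyrimidine runs the call against RUNX1-only regions was lost at the stricter q (-4.68), without dense windows (-5.77), with 1 region per chain (-4.33) and with 100 bases either side (-6.40), and the sign against gene-body regions turned (0.329, 0.0104 and 0.242 at the stricter q, per chain and with 100 bases). Against flanks it was lost on the right (-2.29), 1000 bases away (-4.40), at the stricter q (-2.60), per chain (-2.18) and without dense windows (-6.01). For chromosome ends against gene-body regions, -5.78 (stricter q) and -9.65 (5 kb) passed, and the sign turned without dense windows (1.27) and per chain (3.13). Nearest 3-prime ends against RUNX1-only regions gave 6.44 points over 1 kb from a gene, tRNA genes against shared regions -2.35 per chain, and repeated words at 90% gave -0.189, 0.777 and 0.567 against shared, RUNX1-only and gene-body regions. Other motifs passed for 1 motif with 100 bases either side in each comparison and for 1 against flanks per chain, in place of 0. The causes were not tested.

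No paired analysis was possible because the lists carry no replicate, and for the same reason no replicate could be left out. The classes follow from calls made at a threshold, and the lowest peak used here had 11 fragments at its summit in the members and 8 in the RUNX1-only regions, so weaker sites of either list could not be seen. Soft-masked comparisons were not run. The added measures of tRNA genes, repeated words and distance over 1 kb were chosen after seeing the data.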
